A study of Mus musculus with 17 samples.

Results

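The liprin family was described in the mouse cortex through its 6 genes Ppfia1, Ppfia2, Ppfia3, Ppfia4, Ppfibp1 and Ppfibp2. They were taken by symbol from a table of 55453 gene symbols, and all 6 passed the filter of a mean of at least 1 TPM. TPM is the abundance of a transcript after division by its length, scaled to the same total in every sample, so levels of different genes can be set side by side. The family was chosen by the RNA level of Ppfia3, which the study had named as raised in each knockin line but not by the KO. Its values in those 3 lines are therefore given as a description with no test, whereas the other 5 genes were tested in every comparison.

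Liprins are scaffold proteins with coiled coils in the N-terminal part and SAM domains in the C-terminal part. The liprin-alpha proteins (Ppfia1 to Ppfia4) bind LAR-type receptor tyrosine phosphatases and organize the presynaptic active zone, where they meet RIM, ELKS and CASK, and they serve in the transport of synaptic cargo by kinesins. The liprin-beta proteins (Ppfibp1 and Ppfibp2) pair with the liprin-alpha proteins and take part in cell adhesion complexes at the cell cortex.

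The RNA came from bulk cortex of male C57BL/6J mice, 17 in all and divided into 6 groups. The gene altered was Hnrnph2, an X-linked gene for the RNA-binding protein hnRNPH2, and each mutant group was hemizygous for a KO, the R206W substitution or the P209L substitution. The R206W and P209L lines were knockins of patient substitutions into the mouse gene, and the study keeps the name KO for its own line on this strain, in which an indel shifts the reading frame and the mRNA is degraded. KO mice (n = 3), wild type KO controls (n = 3), R206W mice (n = 3) and wild type R206W controls (n = 3) were 8 weeks old, and P209L mice (n = 3) and wild type P209L controls (n = 2) were 3 weeks old, so that age and line could not be told apart between the P209L line and the others. Every control was a wild type littermate of its line, and cell types were not separated, so fewer cells of a type and less RNA per cell cannot be told apart.

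Sequencing depth is unknown because TPM keeps none. Hnrnph2 itself measured 23.1 ± 1.6 TPM in KO against 121.6 ± 35.7 TPM in KO controls (SD, n = 3 each), 146 ± 12.9 in R206W against 145 ± 4.57 in R206W controls, and 92.5 ± 9.3 in P209L against 86.5 ± 6.97 in P209L controls (n = 2). KO control 1 stood apart from the other mice, with 20.1% of its TPM on mitochondrial genes against 10.7% to 15.4% elsewhere, and it had the lowest value of its group for all 6 liprin genes. In P209L mice the 6 oligodendrocyte markers were all below their controls without overlap, with summed levels of 2401 to 3460 TPM against 3964 to 5928 TPM, as was so for 10.7% of all tested genes. By limma 0 of 6 passed after adjustment and 6 did at an unadjusted p under 0.05, beside 1213 of 16265 genes. The summed level of 5 striated muscle markers was 43.1 to 53.5 TPM in P209L against 107 to 113 TPM in P209L controls. Of the 3 tested, 2 were called, beside 0.0984% of all tested genes. The 8-week groups lay between 45.39 and 58.84 TPM, so it was the P209L controls that stood apart from all other groups. Summed levels also did not overlap for leptomeningeal fibroblast markers in P209L (39.98 to 64.51 TPM against 71.08 to 82.8 TPM) and for striatum markers in P209L (57.7 to 78.45 TPM against 79.42 to 97.71 TPM). Astrocyte marker sums were above the controls in KO (618 to 713 TPM against 464 to 611 TPM) and in R206W (629 to 637 TPM against 593 to 626 TPM), and 0 genes of these 3 lists were called in those lines by limma, with 2, 1, 1 and 0 at an unadjusted p under 0.05 in the order given. Single genes did not all follow these sums. Of 4 tested striatum markers in P209L, 1 was higher than in controls, with log2(TPM + 1) differences from -0.49 to 0.32. There 2 did not overlap, 1 of them higher. Of 5 astrocyte markers in R206W, 4 were higher, from -0.13 to 0.13, and 0 were without overlap. In KO 5 of 5 astrocyte markers were higher, and in P209L 0 of 5 leptomeningeal fibroblast markers were. No marker of the 8 cell type lists was at 0 in every mouse. Neuronal markers summed to 2531 TPM or more in each group. The part of these differences in the liprin values was not tested.

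The hnRNP H proteins are known to bind runs of G in RNA, so the densest such stretch in the coding exons is shown for each liprin-alpha gene. These were the 60-base windows within a single coding exon that held the most runs of GGG or longer, searched on the transcribed sense strand only, with the runs in capitals and every sequence written in transcript direction. The positions are on GRCm38 (mm10), from GENCODE M21 transcripts.
Ppfia3: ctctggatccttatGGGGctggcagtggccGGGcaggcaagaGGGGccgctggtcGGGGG
Ppfia1: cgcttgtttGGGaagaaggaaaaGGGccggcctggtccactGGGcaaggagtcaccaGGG
Ppfia2: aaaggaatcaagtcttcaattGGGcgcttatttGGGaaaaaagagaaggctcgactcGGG
Ppfia4: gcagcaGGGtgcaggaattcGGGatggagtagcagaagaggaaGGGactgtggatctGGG
The Ppfia3 window lay in exon 14 of 30 (chr7:45353539-45353598, minus strand). The Ppfia1 window lay in exon 19 of 31 (chr7:144498711-144498770, minus strand), the Ppfia2 window in exon 20 of 32 (chr10:106865335-106865394, plus strand) and the Ppfia4 window in exon 5 of 29 (chr1:134328019-134328078, minus strand). Ppfia3, Ppfia1 and Ppfia4 each held 4 runs in their window and Ppfia2 held 3. At least 4 runs were found in 29.8% of 13393 coding genes, whose median was 3, so the densest window of Ppfia3 did not set it apart from Ppfia1 and Ppfia4 by number of runs. Over the whole of the longest coding transcript, Ppfia3 had 18.3 runs per kb and Ppfia4 had 19, above 86.3% and 88.7% of 13400 tested coding genes, whereas Ppfia1 had 11.6 and Ppfia2 7.54. The same transcripts were 60.5% G or C in Ppfia3 and 57.8% in Ppfia4, above 95.8% and 87.6% of these genes. Ppfia1 had 51.7% and Ppfia2 40.7%, where the median was 50.3%. The part of base composition in the number of runs was not tested. A run is a match of letters and not a measured binding site.

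Ppfia3 was the most abundant liprin transcript in all 17 mice. The gene lies on chromosome 7 from 45339122 to 45367019 on the minus strand (ENSMUSG00000003863.18). Ppfia2, a brain liprin-alpha, came second in 17 of 17 mice with a mean of 43.4 ± 3.11 TPM (SD, n = 17). Ppfibp1 at 29.0 ± 3.45 TPM and Ppfia4 at 27.6 ± 4.93 TPM took places 3 and 4 in that order in 11 mice. All 11 were 8 weeks old. In KO 3 and in every 3-week mouse Ppfia4 stood above Ppfibp1, and age and line cannot be told apart there. The order was not tested. Ppfia1, the broadly expressed liprin-alpha, took place 5 in 17 of 17 mice at 21.01 ± 2.27 TPM. Ppfibp2 was the lowest in 17 of 17 mice at 3.38 ± 0.53 TPM.

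Ppfia3 measured 129, 130.5 and 128 TPM in the 3 R206W mice and 77.5, 74.05 and 76.1 TPM in their controls. Every R206W mouse stood above every control of any line. The difference was 0.76 on the log2(TPM + 1) scale (SE 0.11), a 1.69-fold higher level, and 99.5% of the 16265 tested genes had a lower difference.

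In the P209L line Ppfia3 measured 121, 119.6 and 122 TPM in the mutants and 75.6 and 81.4 TPM in the controls. The groups did not overlap, and the P209L mutants were also above all 8-week controls. The difference was 0.62 on the log2(TPM + 1) scale (SE 0.13), a 1.53-fold higher level, with 98.8% of tested genes below it. Over 15 alternatives, among them leaving out each mouse, the R206W difference of Ppfia3 lay between 0.73 and 0.77. Over 14 the P209L difference lay between 0.56 and 0.67. Filters and a fit on only its own groups cannot change these differences. Ppfia3 was chosen for these values, so the ranges are a description.

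In the KO line Ppfia3 measured 75.8, 71.5 and 96.4 TPM in the mutants against 63.1, 73.9 and 79.4 TPM in the controls. The groups overlapped, and only KO 3 exceeded all 3 controls. The difference was 0.16 on the log2(TPM + 1) scale (SE 0.11), and it was 0.036 without KO 3 and 0.072 without KO control 1. Without KO 2 it was 0.25. Over 15 alternatives it ranged from 0.025, with sample weights, to 0.25.

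**Figure D1:**
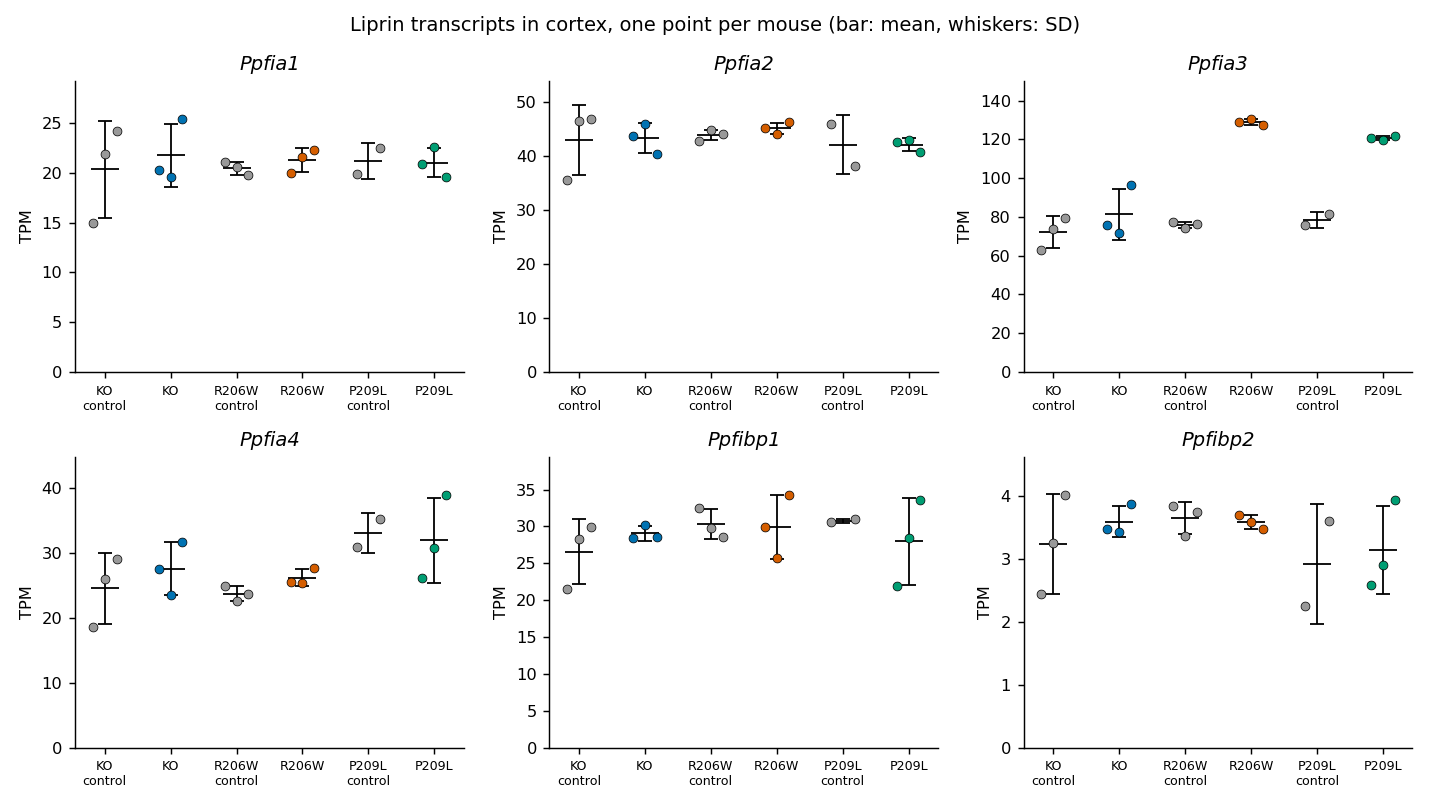
TPM of the 6 liprin genes in each mouse (points), with the mean (bar) and SD (whiskers) of each of the 6 groups; every vertical axis starts at 0 and has its own scale. Ppfia3 stands at 127.54 to 130.5 TPM in R206W and 119.6 to 121.85 TPM in P209L, against 63.08 to 81.4 TPM in the controls of all lines, while mutants and controls overlap for the other 5 genes in every line, except for Ppfia4 in R206W.

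The other liprins were then compared to ask whether the higher level in the knockins extended to the family. In R206W against R206W controls, 0 of the 5 other genes passed limma's test at an adjusted p under 0.05, beside 0.0369% of all tested genes called in either direction, and 0 did so at an unadjusted p under 0.05. In P209L against P209L controls the count was again 0 of 5, beside 0.0984% of all genes, with 0 at an unadjusted p under 0.05. In KO against KO controls it was 0 of 5, beside 0.00615% of all genes, with 0 at an unadjusted p under 0.05. The smallest unadjusted p among these 15 tests was that of Ppfia4 in KO, at 0.306 with an adjusted p = 0.999. With so few genes called anywhere, a count of 0 carries little by itself, and the intervals of the differences are given for each gene.

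Ppfia2 measured 45.2, 44.2 and 46.3 TPM in R206W against 42.9, 44.8 and 44.2 TPM in its controls. In P209L it measured 42.6, 43.05 and 40.8 TPM against 46.1 and 38.3 TPM. Mutants and controls overlapped in both lines. The log2 difference was 0.040 in R206W (95% interval -0.20 to 0.27) and 0.0046 in P209L (-0.26 to 0.27).

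Ppfia4, which encodes a neuronal liprin-alpha, measured 25.5, 25.4 and 27.75 TPM in R206W and 24.95, 22.6 and 23.8 TPM in R206W controls. The groups did not overlap, with 25.37 TPM in the lowest mutant and 24.95 TPM in the highest control, as was so for 16.2% of all tested genes, 8.09% with the mutants higher. The log2 difference was 0.14 (95% interval -0.21 to 0.48, adjusted p = 1, limma), a fold of 1.10 with an upper end of 1.40. This interval rests on a spread shared by all groups. With only its own groups limma gave an unadjusted p = 0.0745 (adjusted p = 0.572), and with sample weights 0.104 (adjusted p = 0.47). In P209L the values were 26.2, 30.75 and 39.04 TPM against 30.9 and 35.2 TPM in the controls, which overlapped, whereas 24.9% of all tested genes did not overlap in that line. The log2 difference was -0.062 (-0.45 to 0.33).

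Ppfia1 measured 20.0, 21.6 and 22.3 TPM in R206W and 21.05, 20.6 and 19.8 TPM in its controls, with a log2 difference of 0.054 (95% interval -0.26 to 0.37). In P209L it measured 20.9, 22.6 and 19.6 TPM against 19.9 and 22.5 TPM, with a log2 difference of -0.0097 (-0.36 to 0.34). The groups overlapped in both lines.

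Of the liprin-beta genes, Ppfibp1 measured 29.9, 25.7 and 34.3 TPM in R206W against 32.55, 29.9 and 28.5 TPM in the controls. In P209L it ranged from 21.9 to 33.6 TPM against 30.56 and 30.95 TPM. Its log2 difference was -0.024 in R206W (95% interval -0.35 to 0.30) and -0.15 in P209L (-0.51 to 0.21). The mutants covered the range of the P209L controls on both sides.

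Ppfibp2 measured 3.48 to 3.7 TPM in R206W against 3.36 to 3.84 TPM in R206W controls, and 2.59 to 3.93 TPM in P209L against 2.25 and 3.6 TPM. Its log2 difference was -0.018 in R206W (95% interval -0.36 to 0.32) and 0.085 in P209L (-0.29 to 0.47). Groups overlapped in both lines, and at this low level the added pseudocount of 1 makes the differences smaller than those of the TPM itself.

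Across these 10 comparisons of the other genes with their controls in the knockin lines, the highest upper end of an interval was 0.48 in R206W (Ppfia4, 1.40-fold) and 0.47 in P209L (Ppfibp2, 1.38-fold). Changes of the other 5 genes within their intervals could not be told apart from none. The median difference of the 5 was 0.040 in R206W and -0.0097 in P209L, where the median of all tested genes was 0.0096 and 0.016.

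**Figure D2:**
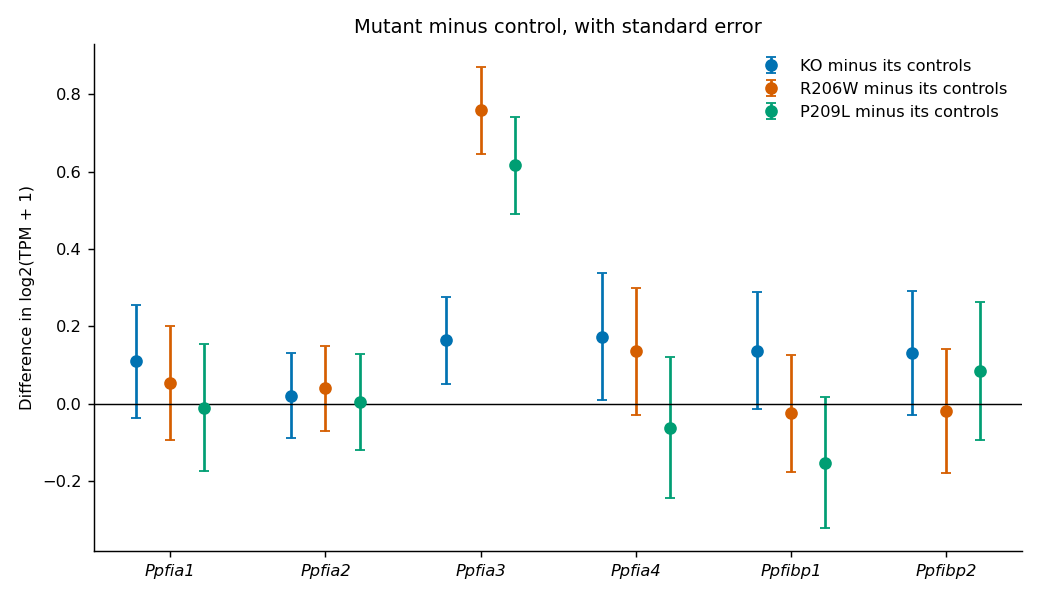
Difference in log2(TPM + 1) between mutants and their own controls for each liprin gene in the KO, R206W and P209L lines; points are the fitted differences and whiskers are 1 standard error. The R206W and P209L points of Ppfia3 lie at 0.76 and 0.62, and the points of the other 5 genes in those lines lie between -0.15 and 0.14.

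In KO mice the 5 other genes had log2 differences of 0.022 (Ppfia2) to 0.17 (Ppfia4), with a median of 0.13, where the median of all genes was 0.064. KO and control values overlapped for each of them, whereas 6.25% of all tested genes did not overlap. Ppfia1, for example, measured 20.3, 19.6 and 25.4 TPM in KO against 14.9, 21.9 and 24.2 TPM in KO controls. Without KO control 1, the mouse with the high mitochondrial share, the differences of these 5 genes lay between -0.11 (Ppfia2) and -0.00063 (Ppfibp1), so that all 5 turned below 0.

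The effects of the lines were also compared with each other. The KO effect minus the R206W effect ranged from -0.018 (Ppfia2) to 0.16 (Ppfibp1) over the 5 other genes, with 0 of 5 called by limma, 0 at an unadjusted p under 0.05 and 0.0307% of all genes called. For Ppfia3 the same difference of effects was -0.59 (SE 0.16), a description. The P209L effect minus the R206W effect ranged from -0.20 (Ppfia4) to 0.10 (Ppfibp2) with 0 of 5 called and 0 at an unadjusted p under 0.05, in a comparison with 0% of all genes called by limma and 647 genes at an unadjusted p under 0.05. Ppfia3 measured -0.14 (SE 0.17) there.

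Within the liprin-alpha family the share of Ppfia3 followed these values. Ppfia3 made up 45.3% ± 2.14 of the summed liprin-alpha TPM in KO controls (SD, n = 3), 46.5% ± 2.8 in KO, 46.2% ± 0.48 in R206W controls and 44.9% ± 1.46 in P209L controls (n = 2). In R206W its share was 58.2% ± 1.06, and in P209L it was 55.95% ± 1.27. The knockin mice lay between 55.06% and 58.87% and the other 11 mice between 43.83% and 49.71%, without overlap.

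The sum of Ppfia1, Ppfia2 and Ppfia4 was 92.8 ± 3.13 TPM in R206W against 88.2 ± 0.6 TPM in R206W controls, and 95.2 ± 4.98 TPM in P209L against 96.4 ± 0.64 TPM in P209L controls. The summed liprin-alpha level was 222 ± 2.04 TPM in R206W against 164 ± 2.16 TPM, 57.7 TPM higher, of which Ppfia3 accounted for 53.2 TPM. In P209L it was 216 ± 5.35 TPM against 175 ± 3.47 TPM, 41.0 TPM higher, while Ppfia3 alone was 42.3 TPM higher. These sums include Ppfia3 and are given with no test. The liprin-beta pair summed to 33.5 ± 4.26 TPM in R206W against 34.0 ± 2.15 TPM, and 31.1 ± 6.52 TPM in P209L against 33.7 ± 1.23 TPM.

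**Figure D3:**
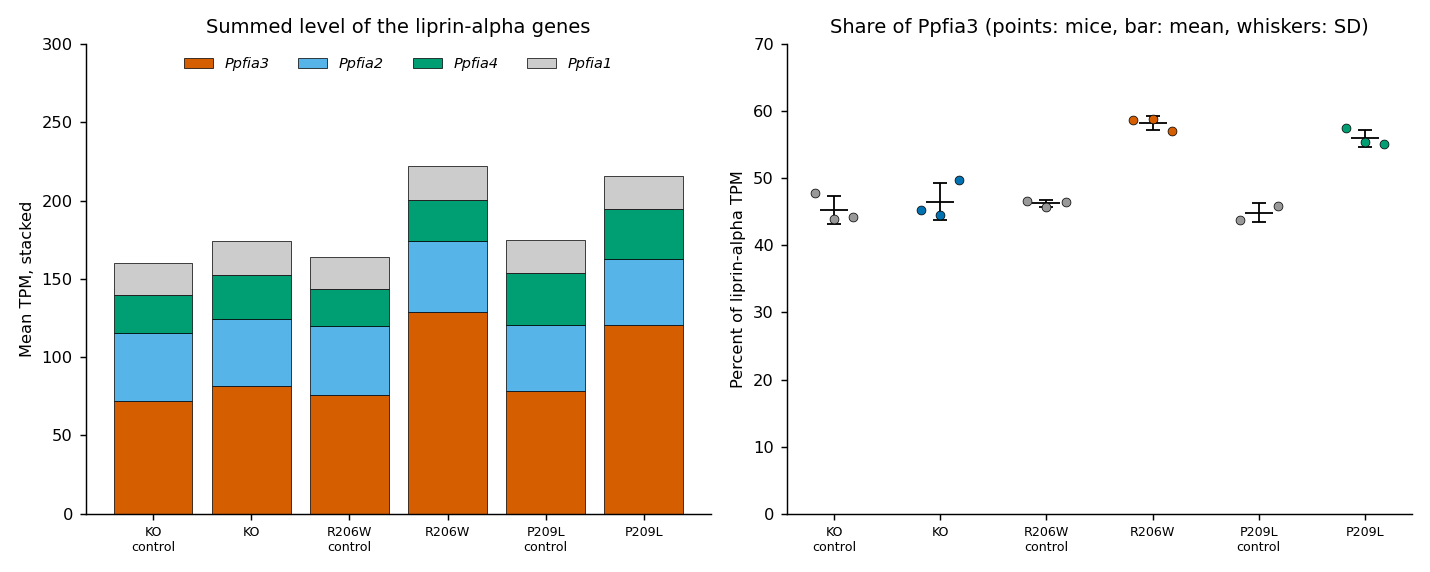
Left, mean TPM of the 4 liprin-alpha genes stacked for each group; right, Ppfia3 as a percentage of their summed TPM in each mouse (points) with mean (bar) and SD (whiskers), and both axes start at 0. The stacks of R206W and P209L reach 222 and 216 TPM against 160 to 175 TPM in the other groups, and the Ppfia3 share is 58.2% and 55.95% against 44.9% to 46.5%.

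The controls were also compared with each other. The choice of Ppfia3 drew on these same control values, so its differences here are a description with no test. Between P209L controls at 3 weeks and the 6 controls at 8 weeks, 1 of the other 5 liprins was called. It was Ppfia4, higher at 3 weeks, beside 36.1% of all tested genes called and 11.3% called as higher at 3 weeks. Ppfia4 measured 30.9 and 35.2 TPM at 3 weeks and 18.6, 26.1, 29.2, 24.95, 22.6 and 23.8 TPM at 8 weeks, without overlap, as was so for 38.2% of all genes. The log2 difference was 0.45 (SE 0.16, 95% interval 0.10 to 0.79, adjusted p = 0.0445, limma). The call was close to the threshold. It was lost without P209L control 1 or 2 (adjusted p = 0.105 and 0.28), without KO control 2 (0.0502), and without R206W control 1, 2 or 3 (0.0568, 0.0761 and 0.0655). Under the 16 alternatives the adjusted p of Ppfia4 lay between 0.00034 and 0.28. The difference was above 0 in each of them, from 0.35 to 0.61, and without KO control 1 it was 0.35 (adjusted p = 0.0411).

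Ppfia3 differed by 0.087 between the 3-week and the 8-week controls (SE 0.11), with 78.5 ± 4.12 TPM (n = 2) against 74.0 ± 5.74 TPM (n = 6). Ppfia2 differed by -0.044 (95% interval -0.28 to 0.19), Ppfia1 by 0.062 (-0.25 to 0.37), Ppfibp1 by 0.12 (-0.20 to 0.44) and Ppfibp2 by -0.19 (-0.53 to 0.15). The median of all genes was -0.12 in this comparison, so Ppfia3 stood 0.21 and Ppfia4 0.57 above it. With the TPM divided by median-of-ratios size factors Ppfibp1 was called as well (0.26, adjusted p = 0.0489), and with quantile normalization Ppfibp1 and Ppfia1 were called (0.29 and 0.25, adjusted p = 0.0265 and 0.0445). Neuronal marker sums were 2676 to 2956 TPM in the 3-week controls and 2961 to 5291 TPM in the 8-week controls. Other sums were higher at 3 weeks without overlap. They were 3964 to 5928 against 2570 to 3491 TPM (oligodendrocyte), 106.8 to 112.9 against 45.39 to 58.47 TPM (striated muscle) and 71.08 to 82.8 against 48.34 to 70.91 TPM (leptomeningeal fibroblast). Astrocyte, microglia, endothelial cell and striatum sums overlapped. The part of these markers in the liprin differences was not tested.

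R206W controls and KO controls, both wild type at 8 weeks, differed in 0 of the other 5 liprin genes by limma, with 0 at an unadjusted p under 0.05. In this comparison 0% of all genes were called and 507 were at an unadjusted p under 0.05. The log2 differences ran from -0.025 (Ppfia4) to 0.19 (Ppfibp1). Ppfia3 differed by 0.078 (SE 0.11, no test) between these controls, where the median of all genes was 0.13.

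Proteins that bind liprins and the ligands of their receptors were examined through 37 listed genes, all of which were tested. In the KO, R206W and P209L comparisons 0 of 37 were called by limma in each, beside 0.00615%, 0.0369% and 0.0984% of all tested genes. At an unadjusted p under 0.05 there were 0, 1 and 1, beside 663, 357 and 1213 of 16265 genes. With so few genes called in any line, these counts of 0 carry little by themselves. The medians of the 37 genes were 0.068, 0.040 and 0.015, where those of all genes were 0.064, 0.0096 and 0.016.

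Among the LAR-type receptor phosphatases Ptprf, Ptprd and Ptprs, to which liprin-alpha binds, 0 of 3 were called in any line. Ptprf had the smallest p of them in R206W, with a log2 difference of 0.23 (SE 0.23, adjusted p = 1, limma), and in P209L, with -0.15 (SE 0.25, adjusted p = 0.965). In KO it was Ptprs, at 0.18 (SE 0.21, adjusted p = 0.999).

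Of 11 presynaptic partners, Syde1, a RhoGAP of the presynaptic active zone, had the smallest p in R206W. Its log2 difference was 0.47 (SE 0.17, adjusted p = 1, limma) without overlap, and in P209L it was 0.26 (SE 0.19, adjusted p = 0.854). Rims1, which encodes the active zone scaffold RIM1, had the smallest p in KO, at -0.15 (SE 0.097, adjusted p = 0.999).

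Of 14 partners in trafficking and at the cell cortex, Phldb1 (LL5-alpha) had the smallest p in each line. It was -0.54 in P209L (SE 0.17, adjusted p = 0.35, limma) without overlap, -0.14 in R206W (SE 0.15, adjusted p = 1) and 0.26 in KO (SE 0.15, adjusted p = 0.999). Of 9 trans-synaptic ligands, which reach across the cleft to LAR-type receptors, Slitrk4 measured 0.40 in P209L (SE 0.23, adjusted p = 0.776), Lrrc4b 0.24 in R206W (SE 0.19, adjusted p = 1) and Il1rapl1 -0.18 in KO (SE 0.15, adjusted p = 0.999).

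The comparison of ages gave more calls among the partners. Between 3-week and 8-week controls, 1 of the 37 genes was higher and 15 were lower, 43.2% in all, beside 36.1% of all genes, 11.3% higher and 24.8% lower. Of the presynaptic partners 1 was higher and 5 were lower at 3 weeks than at 8 weeks: Tspoap1, a RIM-binding protein, had a difference of 0.72 (SE 0.17, adjusted p = 0.00422, limma), while Pclo (piccolo) measured -0.84 and Cask, which links liprin-alpha to the synaptic membrane scaffold, -0.80. Of the trafficking partners 4 were lower at 3 weeks, led by Git1 at -1.17 (SE 0.15, adjusted p = 8.18e-05), an ARF GTPase-activating scaffold that binds liprin-alpha, and the kinesin Kif21a at -0.93. Of the ligands 6 were lower at 3 weeks, led by Slitrk4 at -1.12 (SE 0.21, adjusted p = 0.0009) and Il1rapl1 at -0.85. Of the receptor phosphatases 0 of 3 were called, with 0 at an unadjusted p under 0.05. These controls are also those of the P209L comparison, and age cannot be told apart from line.

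**Figure D4:**
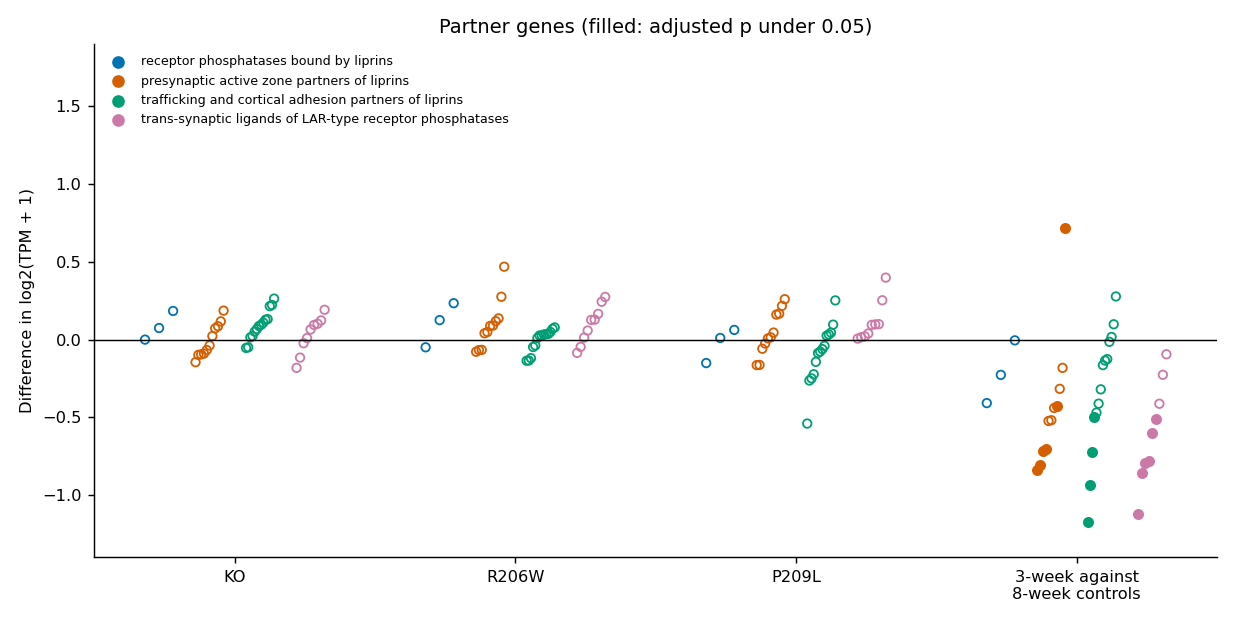
Difference in log2(TPM + 1) of the 37 partner genes, as points coloured by list, in KO, R206W and P209L mice against their controls and in 3-week against 8-week controls; filled points passed limma's test at an adjusted p under 0.05. No point is filled in the 3 lines, and 16 are filled in the age comparison, 15 of them below 0.

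The genes around Ppfia3 on chromosome 7 were examined next. Within 250 kb of Ppfia3, 29 other genes passed the filter. In KO, R206W and P209L 0 of 29 were called by limma, beside 0.00615%, 0.0369% and 0.0984% of all genes. At an unadjusted p under 0.05 there were 1, 0 and 4, beside 663, 357 and 1213 of 16265 genes. The median difference of the 29 genes was 0.124 in KO, 0.022 in R206W and -0.115 in P209L. The medians of all genes were 0.064, 0.0096 and 0.016. Lin7b, which starts 3.56 kb from the Ppfia3 start and encodes a partner of CASK, had a log2 difference of 0.12 in R206W (SE 0.13, adjusted p = 1, limma) with the mutants above the controls and -0.27 in P209L (SE 0.15, adjusted p = 0.749) with the mutants below. Trpm4, a cation channel gene on the other side with a gap of 5.34 kb, measured 0.22 (SE 0.11, adjusted p = 1) and -0.20 (SE 0.13, adjusted p = 0.805). Its groups did not overlap in either line, and the sign was opposite in the R206W and P209L mice.

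In P209L mice 11 of the 29 genes lay below their controls without overlap and 3 lay above, beside 10.7% and 14.2% of all genes. In R206W mice 2 lay above and 1 below, beside 8.09% and 8.11%. In KO mice 3 lay above and 0 below, where 6.25% of all genes did not overlap in either direction. The antisense gene Mtag2 overlaps Ppfia3 and averaged 2.3 TPM over all mice, with differences of -0.097 in R206W and -0.115 in P209L. The strand setting of the counting is not given in the sources used here, so reads of Ppfia3 and Mtag2 in their shared stretch are uncertain.

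**Figure D5:**
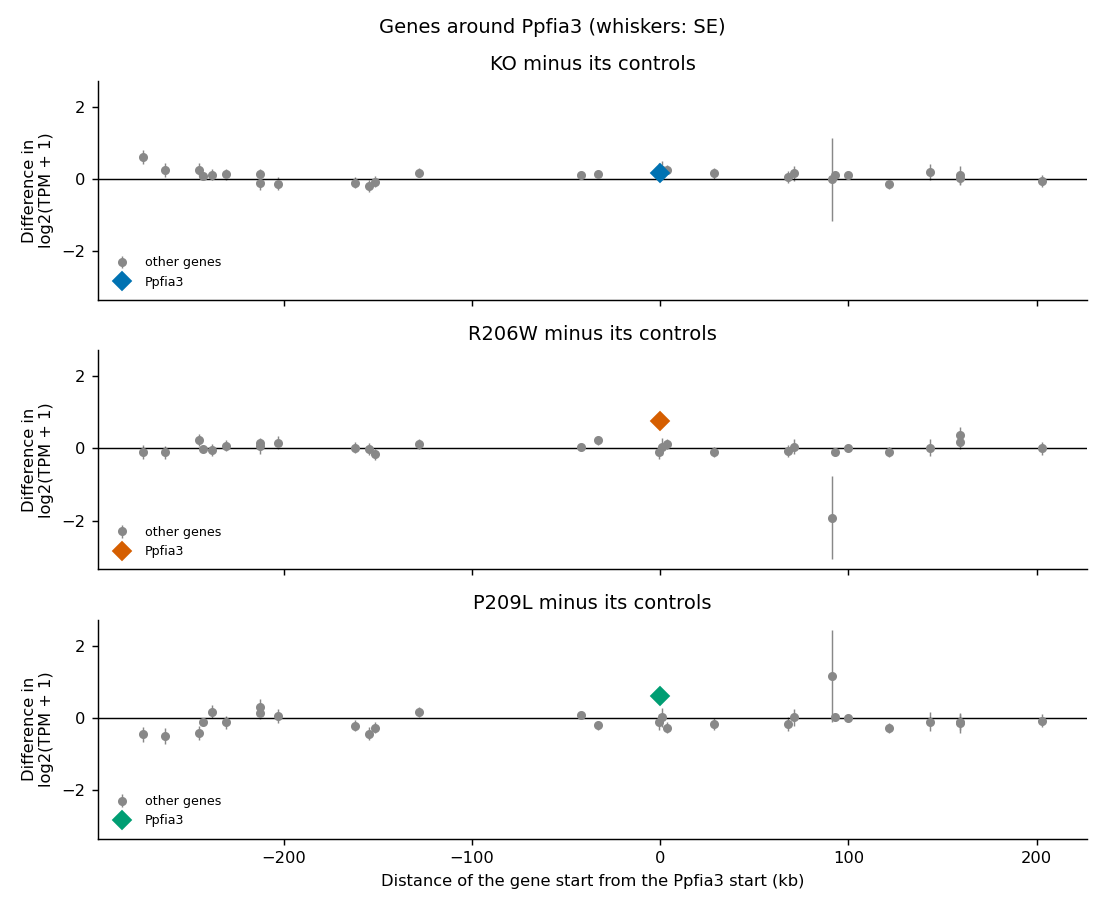
Difference in log2(TPM + 1) of Ppfia3 (diamond) and 29 genes within 250 kb (grey points) against the distance of their start from the Ppfia3 start, for each line; whiskers are 1 standard error. Ppfia3 stands at 0.76 in R206W and 0.62 in P209L, and the largest deviations of grey points there belong to Gm22133, a gene with a wide error (-1.92 in R206W and 1.16 in P209L).

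Covariation of the liprin transcripts within groups differed from pair to pair. After the group means were removed, Ppfia3 and Ppfia1 correlated at r = 0.85 over the 17 mice (0.81 without KO control 1), and Ppfia4 and Ppfibp2 at 0.855 (0.79 without it). Without KO control 1, Ppfia2 was negatively correlated with all 5 others, from -0.023 with Ppfibp1 to -0.76 with Ppfibp2, and Ppfibp1 measured -0.035 with Ppfia1 and -0.048 with Ppfia3. These are descriptions over mice whose values share a library and a fixed total.

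By correlation over all 17 mice, the genes most like Ppfia3 were Phactr3 (r = 0.93), Gm31166 (0.925), Dzip1 (0.91), Ccdc80 (0.90) and Foxo4 (0.89). Phactr3 encodes an actin-binding regulator of protein phosphatase 1, Dzip1 a protein of the ciliary base and Foxo4 a forkhead transcription factor. After removal of the group means r fell to 0.33 for Phactr3, -0.24 for Gm31166 and 0.37 for Foxo4. It fell less for Dzip1 (0.70) and Ccdc80 (0.59). In R206W and P209L the log2 differences were 0.68 and 0.84 for Phactr3, 1.62 and 1.64 for Gm31166, and 0.42 and 0.55 for Dzip1. They were chosen for this pattern, so that the values carry no test.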

How the data were processed

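Bulk cortex of 17 mice was profiled with a TruSeq Stranded Total RNA library. The authors deposited 1 table of TPM values per gene symbol, and the submitters' processing notes name Trim Galore, STAR 2.7.1a, GATK 4.0.4.0, RSEM and mm10; roles, annotation and strand setting are not given in the sources used here. TPM keeps no depth, so no counting error is given, and a few abundant transcripts can shift all others. Of 55573 entries, 120 repeated a symbol and were summed, leaving 55453.

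The 16265 genes with a mean of at least 1 TPM were fitted as log2(TPM + 1) in R 4.3.3 with limma 3.58.1, with 6 group means and a mean-variance trend, and p-values took a Benjamini-Hochberg adjustment over the whole table; a gene was called at an adjusted p under 0.05. Intervals are 95%. The fit was tested on simulated data. Named genes were the 6 liprins, Hnrnph2, the called or smallest-p gene of each partner list, the 2 called genes of each list that differed most with age, the nearest expressed genes, and the 5 (Ppfia3) or 3 (others) most correlated genes. Other genes named were singled out after their values were seen. The members and lists were chosen with earlier results of these data known. Alternatives were pseudocounts, filters, scalings, weights, a block and leaving out each mouse. 1 further P209L control was not analysed here.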

Additional observations from a re-analysis of the deposited data

How the results depend on the processing

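The counts of the 5 other liprins called in KO, R206W and P209L, in both differences of effects and between the 8-week control groups stayed at 0 under every alternative run, and in the 3 lines 0 of 217 fits of a single gene passed (lowest adjusted p = 0.298). The count between 3-week and 8-week controls was 1, and it was 0 with no filter or with only its own groups, 2 with size factors, 3 with quantile normalization and 0 to 1 when a mouse was left out. Ppfia4 there had an adjusted p = 0.0855 with no filter and 0.0821 with its own groups. Small differences changed sign. With size factors and quantile normalization Ppfia2 became -0.054 and -0.036 in KO and 0.094 and 0.096 with age, and with quantile normalization it became -0.022 in P209L. With sample weights Ppfia1 became -0.11 in KO, 0.024 in P209L and -0.0098 with age, Ppfia2 -0.073 in KO and Ppfibp2 0.023 in R206W. The cause was not tested. When each mouse was left out, the KO differences ranged from -0.088 to 0.24 (Ppfia1), -0.11 to 0.088 (Ppfia2), -0.0097 to 0.30 (Ppfia4), -0.00063 to 0.23 (Ppfibp1) and -0.010 to 0.26 (Ppfibp2). The R206W differences ranged from -0.12 to 0.078 (Ppfibp1) and -0.063 to 0.013 (Ppfibp2). The P209L differences ranged from -0.093 to 0.073 (Ppfia1), -0.13 to 0.14 (Ppfia2), -0.21 to 0.069 (Ppfia4), -0.29 to 0.0080 (Ppfibp1) and -0.17 to 0.34 (Ppfibp2). The age differences ranged from -0.036 to 0.15 (Ppfia1), -0.18 to 0.086 (Ppfia2) and -0.44 to 0.061 (Ppfibp2).

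Same-numbered mutants and controls were not treated as pairs, and their titles do not say whether they shared a litter or batch. Over 8 pairs the correlation of their deviations from group means ran from -0.11 to 0.33, and it exceeded 0.1 in 2. With so few mice per group these correlations cannot settle whether the mice were paired. With the replicate number as a block Ppfia1 became 0.037 and Ppfibp2 -0.047 in P209L, where P209L 3 has no partner, and no call among the liprins changed. A block between lines was not run because replicate numbers do not cross lines. Over all alternatives the number of genes called ran from 0 to 2156 in KO, 4 to 149 in R206W, 6 to 72 in P209L, 1 to 319 for KO minus R206W, 0 to 7 for P209L minus R206W, 2719 to 9471 with age and 0 to 26 between 8-week controls; the highest counts came with sample weights, except for P209L minus R206W, where they came with no filter.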

Other observations

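The genes most like the other liprins over the 17 mice were followed by correlation alone. Ppfia1 was closest to Ranbp10 (r = 0.94), Pcnx3 (0.94) and the microtubule-associated kinase gene Mast1 (0.94). Ppfia2 was closest to Sv2b (0.87), which encodes a synaptic vesicle glycoprotein, Zfp27 (0.86) and Mtrex (0.86). Ppfia4 was closest to Muc3a (0.96), L3mbtl1 (0.955) and Pacsin3 (0.95). Ppfibp1 was closest to Ogfod3 (0.91), Mapkap1 (0.90) and Zkscan5 (0.89), and Ppfibp2 to Arhgap30 (0.92), Fen1 (0.91) and Gbp5 (0.90). Unlike those of Ppfia3, these correlations stayed between 0.88 and 0.98 after the group means were removed. They are not given without KO control 1, a mouse whose removal shifted several correlations between the liprins. The points share libraries and a fixed total, and no test was made.

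The nearest expressed genes of the other liprins were Cttn, which encodes cortactin, and Ano1 beside Ppfia1, Ccdc59 and Gm29674 beside Ppfia2, the adenosine receptor gene Adora1 and Tmem183a beside Ppfia4, Arntl2 and Rep15 beside Ppfibp1, and Olfml1 and Gm10156 beside Ppfibp2. In KO their log2 differences ran from -0.17 (Gm10156) to 0.38 (Rep15), and Rep15 and Olfml1 (0.33) lay above their controls without overlap, where 6.25% of all genes did not overlap in either direction, with an adjusted p = 0.999 for both by limma. In R206W their log2 differences ran from -0.16 (Gm10156) to 0.28 (Ano1), and all overlapped. In P209L they ran from -0.20 (Olfml1) to 0.40 (Gm10156). There only Ano1 (-0.12, adjusted p = 0.969, limma) did not overlap and lay below its controls, as did 10.7% of all genes.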
